A study of Arabidopsis thaliana with 4 samples.

Results

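The cytosolic ribosomal protein genes of *Arabidopsis thaliana* are described here in meristem-enriched tissue against young leaves. Members were the nuclear loci on the array whose description names a 40S, a 60S or a 60S acidic ribosomal protein, without regard to case. This rule uses no measured value and found 247 loci among the 25660 loci on the array. For 234 of them the description names the protein outright, and these fall into 80 protein families with at least 2 loci each, the largest being S15 with 7 loci. Of the named loci, 96 encode proteins of the 40S subunit, 124 proteins of the 60S subunit and 14 proteins of the P-stalk. The rule also took in 9 loci that are only described as similar to a ribosomal protein and 4 whose description names a mitochondrial protein, and these 13 are given separately. All 247 loci are protein-coding genes in the RefSeq gene table.

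The cytosolic ribosome translates the mRNAs exported from the nucleus. Its small subunit, 40S, binds the mRNA and reads the codons, its large subunit, 60S, joins the amino acids, and the P-stalk of the large subunit (the scaffold P0 with the acidic proteins P1 and P2 and, in plants, P3) recruits the elongation factors. In Arabidopsis each of these proteins is encoded by a small family of related genes, and mutants in single copies are known for pointed leaves, altered leaf polarity and slow growth.

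Both tissues came from *clv3-9* plants, which carry a point mutation in the *CLV3* coding sequence in the Columbia background, were 9 weeks old and had grown on soil in short days (8 h light, 16 h dark). The meristem arrays hold meristem-enriched tissue cut by hand from these plants, and the leaf arrays hold whole young leaves of the same genotype, with 2 biological replicates of each tissue on 4 one-colour arrays. The mutant has an enlarged meristem, which eases dissection, wild-type plants are not among the arrays, and the dissected tissue is enriched, not pure. All 4 arrays lay on 1 slide. Values are log2 fluorescence signals, brought to a common 75th percentile. Before scaling this percentile lay at 874 and 978 in the meristem, against 606 and 794 in the leaf. Levels of different probes are not compared, since probes bind with different strength.

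The tissue labels were set against marker genes. All 5 meristem markers (*STM*, *WUS*, *CLV3*, *KNAT1* and *KNAT2*) were higher in the meristem, by 5.34 to 6.73 on the log2 scale and, for *WUS*, at least 33.0-fold, and all 5 mesophyll markers (*RBCS1A*, *RBCS-1B*, *LHCB1.4*, *CA1* and *RCA*) were lower, with differences of -7.44 to -2.22 and, for *CA1*, at least 969-fold. The log2 of the summed signals of the meristem markers was 13.9 and 14.3 in the meristem, against 7.89 and 7.96 in the leaf. All 5 markers of dividing cells (*CYCB1;1*, *KNOLLE*, *CDKB1;1*, *CDKB2;1* and *PCNA1*) were higher in the meristem too, by 1.05 to 2.36. The log2 of their summed signals was 13.6 and 13.0 there, against 12.0 and 12.0 in the leaf. The floral genes and 1 of the 2 epidermal genes were higher in the meristem as well. *LFY* was at least 52.1-fold higher in the meristem and *AP1* higher by 3.41, and the epidermal *PDF1* was higher by 1.70, while *ATML1* had a difference of -0.16 and the trichome gene *GL2* one of 0.43, neither past the test. Of the phloem genes, *SUC2* was lower (-1.74) and *APL* had a difference of -0.60 that did not pass. The part of dividing, floral or epidermal cells in the differences described next was not tested. In such tissue samples, fewer cells of a type and less RNA per cell cannot be told apart.

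Ribosomal protein transcripts were more abundant in the meristem than in the leaf for most members, by a small and even amount. Of the 243 members tested, 136 (56.0%) were higher in the meristem at an adjusted p of at most 0.05 (limma over all 23254 loci tested, Benjamini-Hochberg), where 27.1% of all loci were. Only 1 member, *RPL3B*, was lower, which is 0.412% of the members beside 21.6% of all loci. Both meristem arrays lay above both leaf arrays for 214 members, and in all loci this held for 43.8%, while both leaf arrays lay above both meristem arrays for 4 members, beside 35.5% of all loci. The median log2 difference (meristem minus leaf) of the members was 0.55, a ratio of 1.47, and that of all loci tested was 0.10, so that the members' median lay 0.46 above that of all loci.

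The members differed less from each other than loci in general. The middle 50% of the members had log2 differences between 0.40 and 0.75, and the middle 50% of all loci had differences between -0.49 and 0.66. A difference of at least 1 was measured for 19 of the 243 members tested, beside 3859 of all 23254 loci tested. No member had a difference of -1 or less, beside 3604 of all loci. A fitted log2 difference of at least 2, or 4-fold, with an adjusted p of at most 0.05 was found for 2 members, *RPP2E* and AT5G63070, beside 6.55% of all loci. Only *RPP2E* was well above background on all 4 arrays, whereas AT5G63070 was not in the leaf and its measured bound was at least 3.80-fold. No member was 4-fold lower, beside 6.42% of all loci. Among the 230 members well above background on all 4 arrays, 134 (58.3%) were higher and 1 (0.435%) was lower, with a median difference of 0.56. Of all loci well above background on all 4 arrays, 28.6% were higher and 23.5% lower, with a median of 0.13.

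**Figure D1:**
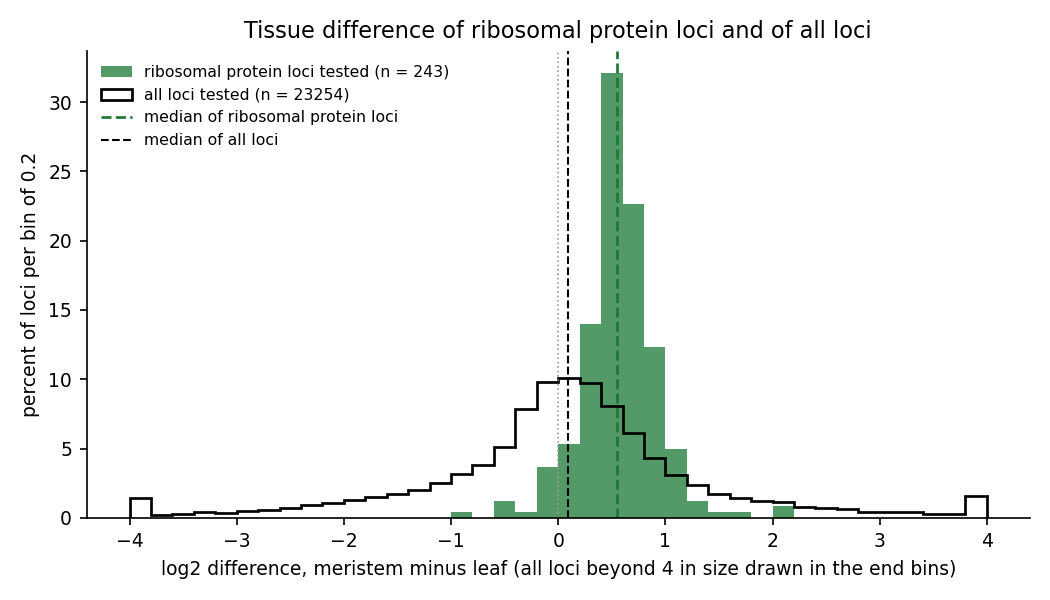
Distribution of the log2 difference between meristem and leaf (horizontal axis) as the percent of loci in each bin of 0.2 (vertical axis), for the 243 ribosomal protein loci tested (filled) and all 23254 loci tested (outline), with dashed lines at the medians of 0.55 and 0.10. The ribosomal protein loci form 1 narrow peak between about 0 and 1, while all loci spread to both sides.

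How many members passed the test depended on how the arrays were brought to a common scale. The smallest difference among the members called higher was 0.44, not far below the members' median of 0.55. The median difference of the members was positive under each scaling, 0.25 with scaling to the median of each array, 0.97 without scaling and 1.32 with scaling to the spike-in spots. These scalings moved the median of all loci in the same way, to -0.20, 0.51 and 0.86, and left the members' median 0.46 above it. The number of members called higher was 47 with scaling to the median, 174 without scaling and 234 with the spike-in spots. Of all 23254 loci tested, 4087, 7793 and 15266 were called higher under the same scalings. With scaling to the median, the share of the 243 members called higher was thus close to that of all loci. Of all loci called in either direction, 55.7% were higher in the meristem with the 75th percentile, 37.2% with the median, 73.3% without scaling, 85.1% with the spike-in spots and 29.5% with normexp background correction, under which no member was called. Of the 243 members, 227 had a difference above the median of all loci. The 75th percentile, median, unscaled and spike-in versions differ by a constant per array. By arithmetic they cannot move this count or the 0.46. With quantile normalization, which is no such constant, 224 members lay above the median of all loci, and the members' median lay 0.71 above it. Single arrays mattered as well. The members' median difference was 0.47 without meristem replicate 1, 0.64 without meristem replicate 2, 0.60 without leaf replicate 1 and 0.51 without leaf replicate 2. That of all loci stayed between 0.08 and 0.10. Each of these fits leaves 1 array in a tissue, and fewer members and fewer of all loci were called higher.

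**Figure D2:**
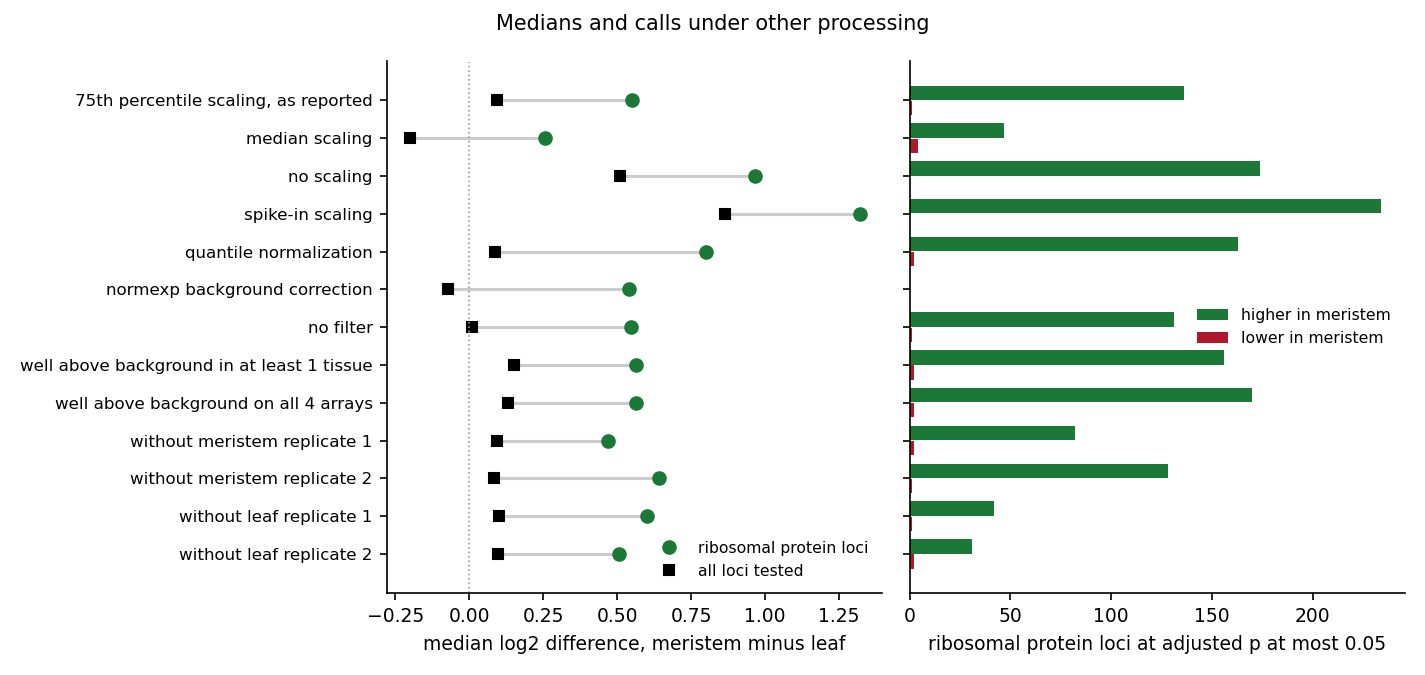
Left, the median log2 difference between meristem and leaf of the ribosomal protein loci (circles) and of all loci tested (squares) under 13 ways to process the arrays. Right, the number of ribosomal protein loci at an adjusted p of at most 0.05 that were higher or lower in the meristem. The circle lies right of the square in every row, and the number called higher runs between 0 with normexp background correction and 234 with spike-in scaling.

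In the 40S subunit, 59 of 94 loci tested (62.8%) were higher in the meristem and none was lower, beside 27.1% and 21.6% of all loci. The median log2 difference was 0.60. *RPS6B* (AT5G10360) encodes a copy of S6, the 40S protein phosphorylated by S6 kinase downstream of the TOR kinase. It had log2 signals of 12.26 and 12.37 on the meristem arrays, against 11.06 and 11.32 on the leaf arrays, a difference of 1.13 ± 0.15 (SE, n = 2 arrays per tissue, adjusted p = 0.0060 in limma). Its paralogue *RPS6A* (AT4G31700) read 14.97 and 14.98 in the meristem and 14.30 and 14.30 in the leaf, a difference of 0.67. *RPS6A* and *RPS6B* thus did not overlap between the tissues. *RPS9C* (AT5G39850) encodes S9, a 40S protein at the mRNA entry, and had 10.24 and 10.30 in the meristem and 9.11 and 9.18 in the leaf, a difference of 1.12. *RPS19A* (AT3G02080) had 13.63 and 14.06 in the meristem and 12.71 and 12.77 in the leaf, a difference of 1.10.

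The smallest differences among the called 40S loci lay close together. *RPS25B* (AT2G21580) was higher in the meristem by 0.48, *RPS11A* (AT3G48930) by 0.49 and *RPS27aC* (AT3G62250), which encodes S27a fused to ubiquitin, by 0.49. None of these loci passed the test with scaling to the median of the arrays, where their differences were 0.18 to 0.19. In 10 of the 32 families of the 40S subunit every locus tested was higher in the meristem, and in 2, S17 and S29, no locus passed the test. The 4 loci of S17 had differences of 0.21 to 0.47, and the 3 loci of S29 differences of 0.13 to 0.54.

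In the 60S subunit, 66 of 122 loci tested (54.1%) were higher in the meristem and 1 (0.820%) was lower, beside 27.1% and 21.6% of all loci. The median log2 difference was 0.53. The largest difference was that of *RPL12A* (AT2G37190), a copy of L12, which lies at the base of the P-stalk. Its log2 signals were 14.37 and 14.58 on the meristem arrays, against 13.28 and 13.23 on the leaf arrays, a difference of 1.22 ± 0.14 (SE, n = 2 arrays per tissue, adjusted p = 0.0037 in limma). *RPL7D* (AT3G13580) followed with 13.91 and 14.29 in the meristem and 12.78 and 12.99 in the leaf, a difference of 1.21. All 4 loci of L7 were higher in the meristem, and the smallest difference among them was 0.48 in *RPL7B* (AT2G01250). Every locus tested was higher in 11 of the 44 families of the 60S subunit. In 8 families no locus passed the test, among them L29, whose loci *RPL29A* (AT3G06700) and *RPL29B* (AT3G06680) had differences of -0.01 and 0.11 with overlapping tissues.

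In the P-stalk, 6 of 14 loci tested (42.9%) were higher in the meristem and none was lower, beside 27.1% and 21.6% of all loci. The median log2 difference was 0.51. The differences between the shares of the 3 groups of proteins were not tested. The P-stalk held both the largest difference of all members and the second most negative one. *RPP2E* (AT5G40040), a copy of P2, had log2 signals of 6.72 and 6.01 on the meristem arrays, against 4.14 and 4.20 on the leaf arrays. Both meristem arrays lay clearly above the leaf arrays, although they also lay apart from each other, and the difference was 2.19 ± 0.27 (SE, n = 2 arrays per tissue), or 4.57-fold, with an adjusted p of 0.0047 in limma. With normexp background correction its difference was 0.37 and did not pass the test. AT5G24510, described as a putative P1, had 5.63 and 5.77 in the meristem and 4.61 and 4.60 in the leaf, a difference of 1.09 (0.05 with normexp background correction, not past the test).

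No locus of the scaffold P0 or of the plant-specific P3 passed the test, and whether they differ from P1 and P2 was not tested. The 3 P0 loci had differences of 0.30 in *RPP0A* (AT2G40010), 0.35 in *RPP0B* (AT3G09200) and 0.48 in *RPP0C* (AT3G11250). All 3 had both meristem arrays above both leaf arrays, an order that 43.8% of all loci showed. Of the 2 P3 loci, both named after their values were seen, *RPP3A* (AT4G25890) had 8.78 and 8.39 in the meristem and 9.20 and 9.11 in the leaf, a difference of -0.57 (adjusted p = 0.062 in limma). *RPP3B* (AT5G57290) had 11.59 and 11.33 in the meristem and 10.72 and 11.13 in the leaf, a difference of 0.53 (adjusted p = 0.097 in limma). *RPP3A* passed the test as lower in the meristem under 6 of the alternatives, among them scaling to the median (-0.87) and quantile normalization (-0.64).

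Paralogues of the same protein mostly differed between the tissues by similar amounts, but the members as a set did so too. At least 1 locus was higher in the meristem and none was lower in 67 of the 80 families, no locus passed the test in 12, and 1 family, L3, held both a higher and a lower locus. In 21 families all loci tested were higher. The range of log2 differences within a family had a median of 0.43, and 45 families had a range under 0.5. Over all members tested, the lower and upper quartiles of the log2 difference were 0.40 and 0.75. Whether loci of a family were closer to each other than loci of different families was not tested. Over the 78 families with at least 2 loci well above background on all 4 arrays, the median range was 0.35 and 4 families had a range of at least 1, namely P2, L3, P1 and P3. Copies of a family are close in sequence, probe sequences were not used here, and signal shared between copies would pull their differences together.

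**Figure D3:**
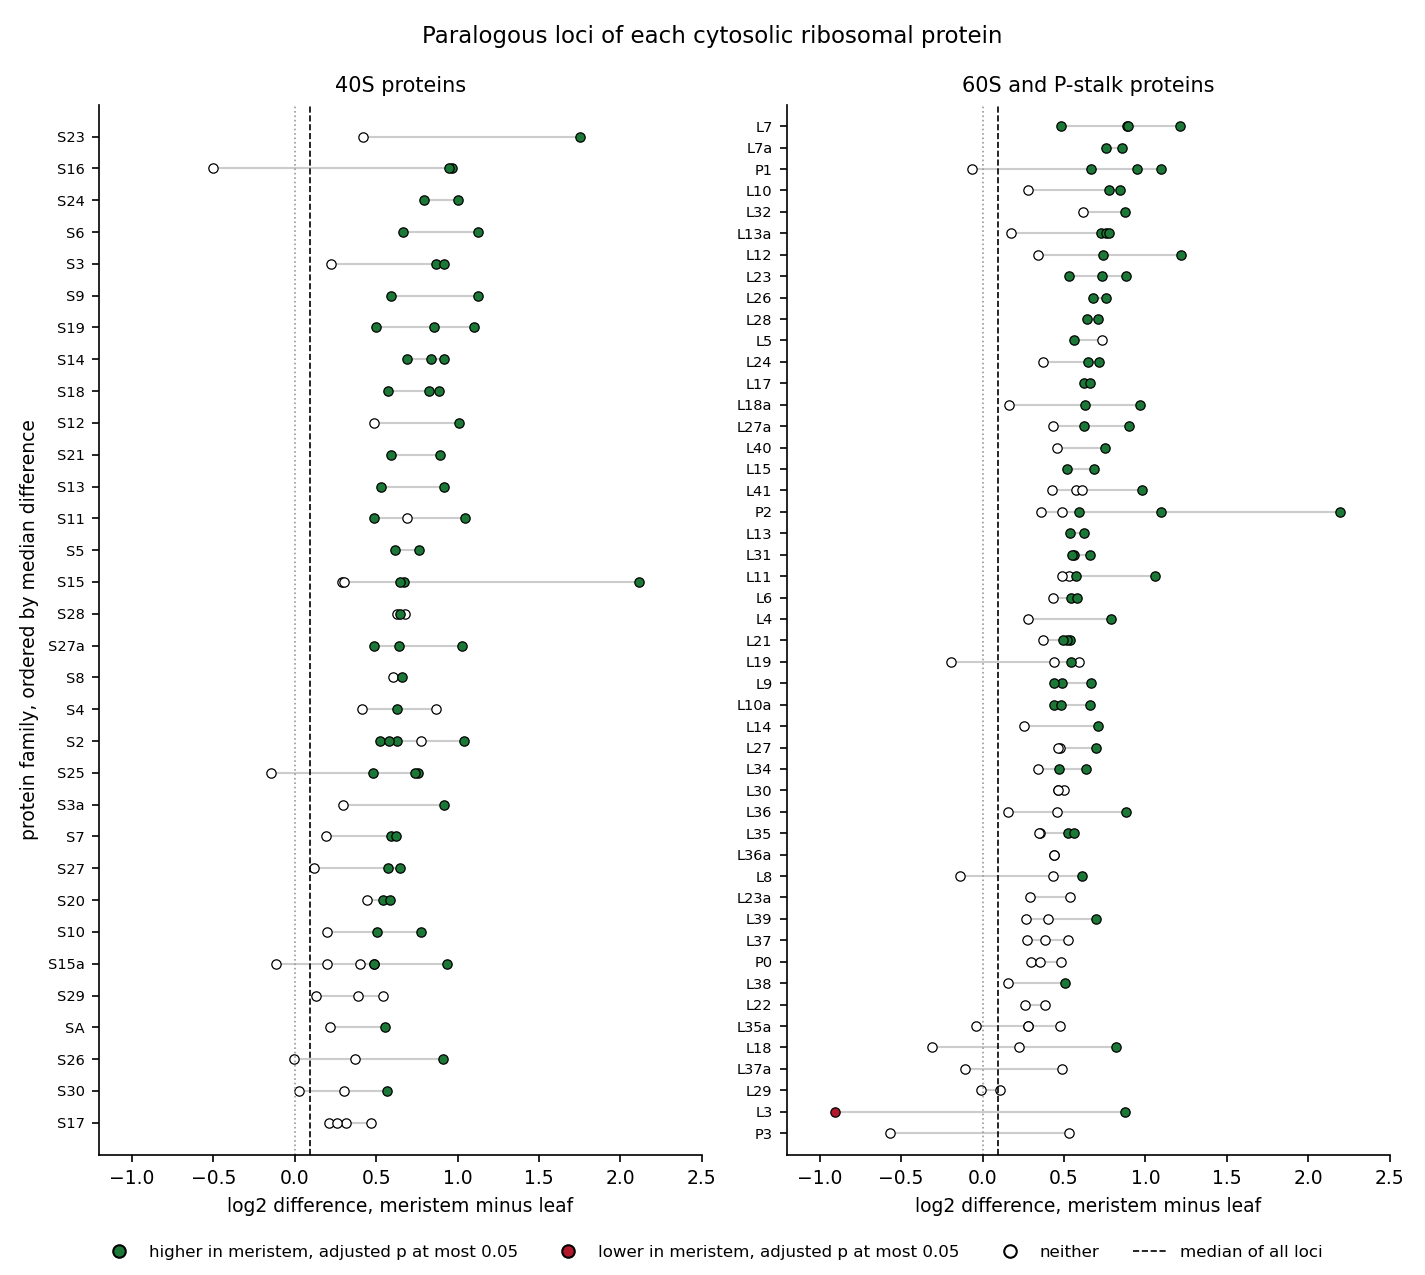
The log2 difference between meristem and leaf (horizontal axis) of each tested locus (points), in rows by protein family, for 40S proteins (left) and 60S and P-stalk proteins (right). Filled points passed an adjusted p of 0.05, higher in the meristem in green and lower in red, open points did not, and the dashed line is the median of all loci. Most families sit right of that line with a short span, and L3 is the family with a red and a green point.

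The L3 family had a locus called in each direction. L3 is a 60S protein next to the peptidyl transferase centre and is encoded by a pair of loci. *RPL3A* (AT1G43170) had log2 signals of 16.05 and 16.08 on the meristem arrays, against 15.19 and 15.19 on the leaf arrays, a difference of 0.88 ± 0.12 (SE, n = 2 arrays per tissue, adjusted p = 0.0056 in limma). *RPL3B* (AT1G61580) had 10.25 and 10.16 in the meristem, against 11.06 and 11.16 in the leaf, a difference of -0.91 ± 0.12 (adjusted p = 0.0062 in limma). *RPL3A* was thus higher and *RPL3B* lower in the meristem, and in neither did the tissues overlap. The difference of *RPL3B* was negative under each alternative, but it did not pass the test without scaling (-0.49), with scaling to the spike-in spots (-0.14) or with normexp background correction (-0.84).

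A ratio of paralogues on the same array does not move with the scaling constant of that array, but it can move with the background correction. The log2 ratio of the *RPL3A* signal to the *RPL3B* signal was 5.80 and 5.92 in the meristem, against 4.13 and 4.02 in the leaf, so the pair shifted by 1.78 between the tissues. For the widest pair of P2, *RPP2E* over *RPP2D* (AT3G44590), the ratio was -0.75 and -1.11 in the meristem and -2.86 and -2.66 in the leaf, a shift of 1.83. For P1, AT5G24510 over *RPP1B* (AT4G00810), it was -7.44 and -6.93 in the meristem and -8.44 and -8.25 in the leaf, a shift of 1.16. For P3, *RPP3B* over *RPP3A*, it was 2.81 and 2.94 in the meristem and 1.52 and 2.03 in the leaf, a shift of 1.10. The ratios of these 4 pairs did not overlap between the tissues, but the pairs were picked for their spread, and with 2 arrays per tissue an exact two-sided permutation test cannot give a p below 0.333. With normexp background correction the differences of *RPP2E* and *RPP2D* were 0.37 and 0.11, so this pair lay much closer together. That of AT5G24510 was 0.05 under the same correction. *RPL3A* and *RPL3B* kept differences of 0.92 and -0.84. Of the other P1 loci, *RPP1A* (AT1G01100) was higher in the meristem by 0.95 and *RPP1C* (AT5G47700) by 0.66, while *RPP1B* had a difference of -0.07 with overlapping tissues.

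**Figure D4:**
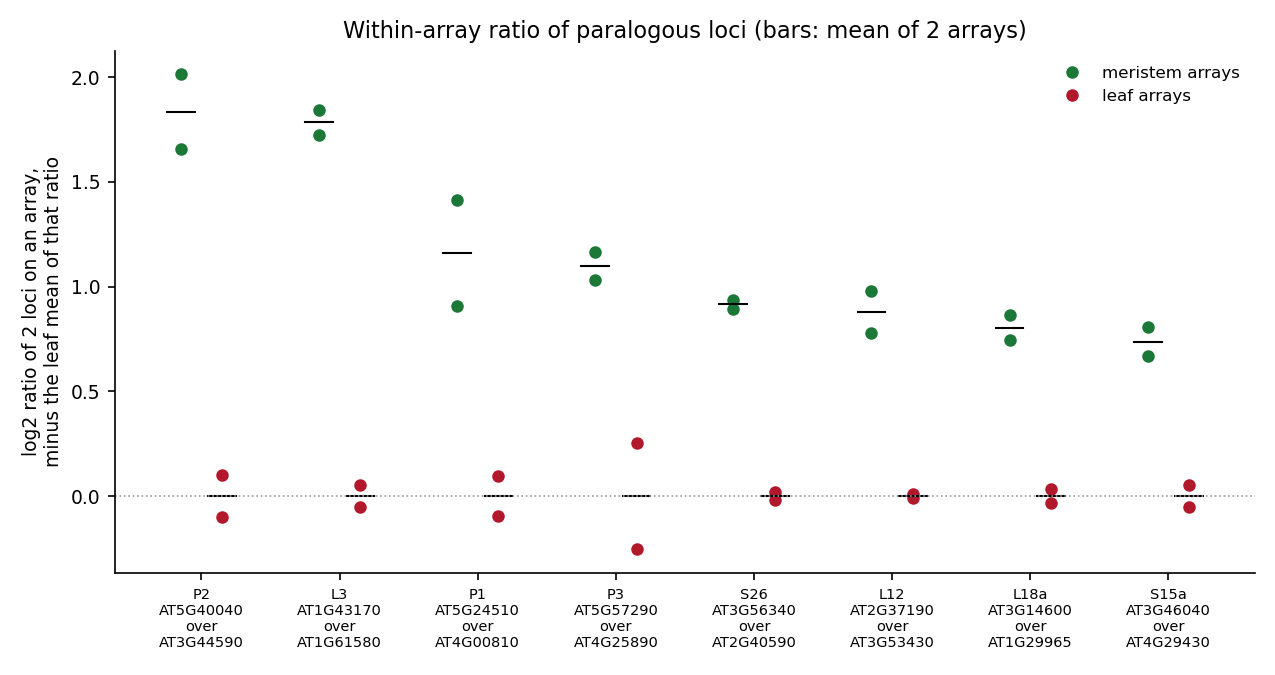
The log2 ratio of 2 loci of a family on each array, with the leaf mean of that ratio subtracted (vertical axis), for the 8 families with the largest shift among loci well above background on all 4 arrays. Points are arrays, meristem left of leaf, and bars are means of 2 arrays. The meristem arrays lie 0.74 to 1.83 above the leaf arrays on average.

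Within the P2 family the 5 loci spanned log2 differences of 0.36 to 2.19. Beside *RPP2E*, *RPP2C* (AT3G28500) was higher in the meristem, with 11.51 and 11.15 there and 10.32 and 10.16 in the leaf, a difference of 1.09. *RPP2B* (AT2G27710) was higher by 0.59. *RPP2A* (AT2G27720) and *RPP2D*, with differences of 0.49 and 0.36, did not pass the test. In each, both meristem arrays lay above both leaf arrays, as in 43.8% of all loci.

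The S15 family held the locus with a bound in place of a fold. AT5G63070, described as a putative S15, had log2 signals of 5.13 and 4.87 on the meristem arrays, against 2.86 and 2.92 on the leaf arrays, where it was not well above background. Its fitted difference was 2.11 (adjusted p = 0.0012 in limma), and against the dimmest signal that still cleared background in the leaf it was at least 3.80-fold higher in the meristem. With normexp background correction the difference was 0.02 and did not pass the test. *RPS15A* (AT1G04270) and *RPS15E* (AT5G43640) were higher in the meristem by 0.67 and 0.65. *RPS15C* (AT5G09500) and *RPS15D* (AT5G09510) had differences of 0.29 and 0.31 and did not pass the test, and no array had AT1G33850 or *RPS15B* (AT5G09490) well above background, and they were not tested. In the S16 family *RPS16B* (AT3G04230) was higher by 0.97 and *RPS16C* (AT5G18380) by 0.94, while *RPS16A* (AT2G09990) was well above background on none of the 4 arrays, which sets the width of that family.

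**Figure D5:**
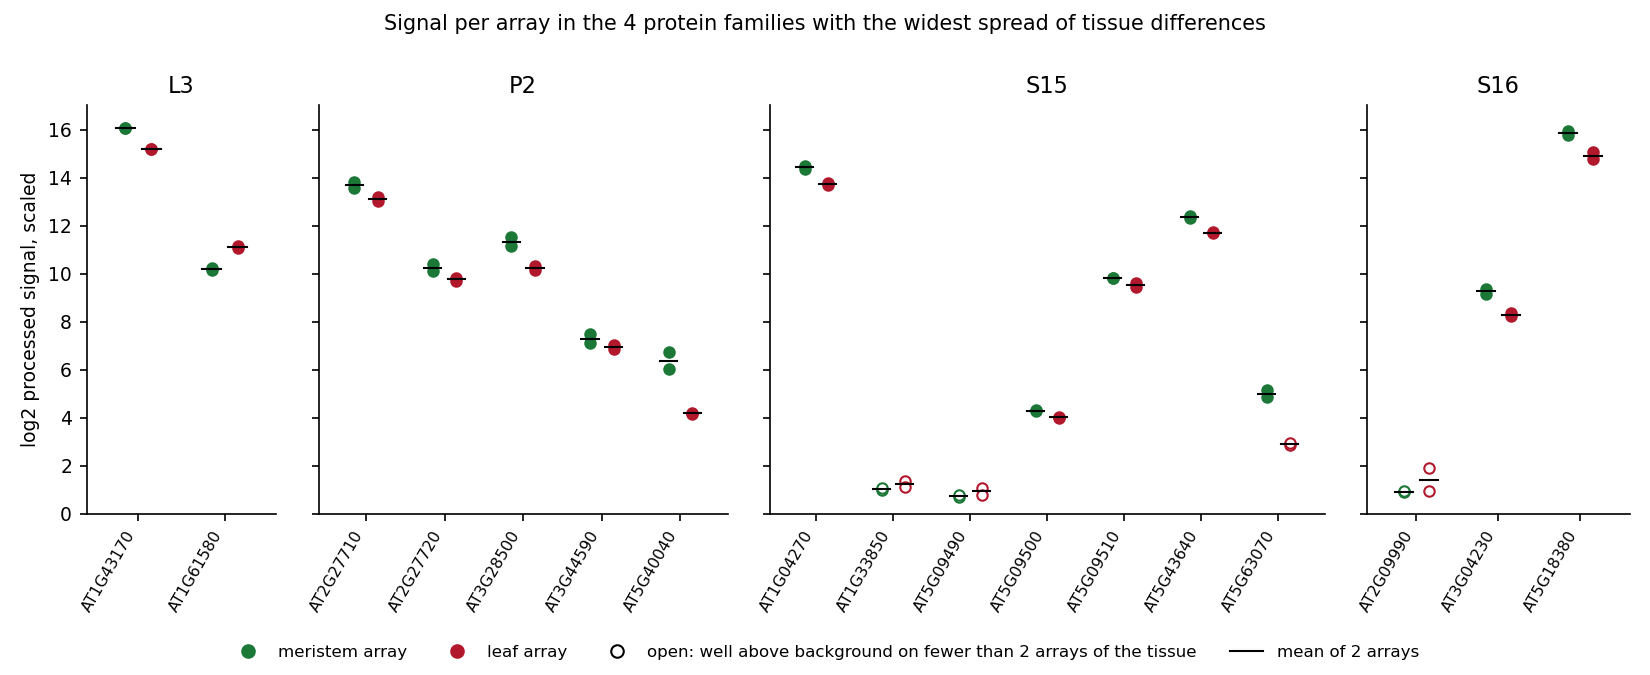
Scaled log2 signal (vertical axis) on each of the 4 arrays for all loci of the families L3, P2, S15 and S16, with meristem arrays in green left of leaf arrays in red, bars at the mean of 2 arrays, and open points where a probe cleared background on fewer than 2 arrays of the tissue. The only locus well above background whose leaf points lie above its meristem points is AT1G61580 (*RPL3B*).

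Ribosomal protein genes known from mutants or long studied as pairs were followed one by one. Of these 22 loci, 15 were higher in the meristem, 1 was lower and 6 passed no threshold, and in 20 both meristem arrays lay above both leaf arrays. Among all members 56.0% were higher, and both meristem arrays lay above in 214 of 243. For all loci these shares were 27.1% and 43.8%. Whether the studied loci differ from the other members was not tested. The *PIGGYBACK* genes, whose mutants turn leaf polarity mutants more severe, were among the loci with the smallest called differences. *PGY1* (AT2G27530, L10a) had 12.65 and 12.58 in the meristem and 12.17 and 12.10 in the leaf, a difference of 0.48. *PGY2* (AT1G33140, L9) had 16.07 and 16.09 in the meristem and 15.66 and 15.62 in the leaf, a difference of 0.44. *ATL5* (AT3G25520, L5) had 14.76 and 14.54 in the meristem and 14.15 and 14.03 in the leaf, a difference of 0.56. All 3 thus had their meristem arrays above their leaf arrays, and none of them passed the test with scaling to the median of the arrays. The other L5 locus, *RPL5B* (AT5G39740), had 8.25 and 7.41 in the meristem and 6.98 and 7.21 in the leaf, and its difference of 0.73 ± 0.32 did not pass the test, with an SD of 0.60 between its meristem arrays.

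A pair of genes named for the pointed first leaves of their mutants was higher in the meristem as well. *PFL* (AT1G22780, S18) had 14.78 and 14.72 in the meristem and 13.99 and 13.74 in the leaf, a difference of 0.89. *RPS13A* (AT4G00100, S13, known as *PFL2*) had 14.31 and 14.21 in the meristem and 13.39 and 13.30 in the leaf, a difference of 0.91. *STV1* (AT3G53020, L24), which acts in the patterning of the gynoecium through translation of auxin response factors, had 14.32 and 14.47 in the meristem and 13.61 and 13.74 in the leaf, a difference of 0.72. The S5 pair was higher in the meristem in both copies, AT3G11940 by 0.76 and AT2G37270 by 0.61. AT3G11940 is *RPS5A* in RefSeq, the gene whose promoter is widely used to drive expression in dividing cells, and the array annotation has the names of this pair the other way round.

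Several pairs split at the threshold. *RPL4A* (AT3G09630) was higher by 0.79, and *RPL4D* (AT5G02870) had a difference of 0.28 that did not pass. *RPL38B* (AT3G59540) was higher by 0.51, and *RPL38A* (AT2G43460) had a difference of 0.15 with overlapping tissues. Neither *RPL23aA* (AT2G39460) nor *RPL23aB* (AT3G55280) passed, with differences of 0.29 and 0.53. A pass in one copy and not in the other is not a difference between the copies, which was not tested. *SAC52* (AT1G14320, L10), a gene found as a suppressor of a dwarf mutant, had a difference of 0.28 that did not pass, while *RPL28A* (AT2G19730) was higher by 0.71. The remaining called loci with small differences were *RPL10aA* (AT1G08360) with 0.44, *RPL34B* (AT1G69620) with 0.47 and *RPL90B* (AT1G33120, L9) with 0.49.

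Not every annotated copy gave a signal. Of the 247 members, 230 were well above background on all 4 arrays, 6 on some arrays and 11 on none. Among those on none were *RPL22A* (AT1G02830), AT1G33850 (S15), *RPS16A* (AT2G09990), *RPS15aC* (AT2G39590), *RPL37aB* (AT3G10950), *RPL13C* (AT3G48960), AT3G49460 (related to P1), *RPL8B* (AT3G51190), AT4G16030 (L19) and *RPS15B* (AT5G09490). Each of these belongs to a family with other copies well above background, except AT3G49460, which was assigned to no family. *RPS23A* (AT3G09680) was also near background, with log2 signals of 3.46 and 3.23 in the meristem and 1.57 and 1.61 in the leaf. It is counted among the members called higher (adjusted p = 0.0016 in limma), but it was well above background on 1 of the meristem arrays and no leaf array, so no fold is given.

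The rule also took in 13 loci without a named cytosolic protein, and whether they differ from the others was not tested. Of the 9 similar to a ribosomal protein, 4 (44.4%) were higher in the meristem and none was lower, beside 27.1% and 21.6% of all loci. Their median log2 difference was 0.55, with values of -0.49 to 1.42, while 57.0% of the named members were higher. The negative value was that of AT4G14250, named after its value was seen, which did not pass the test but was called lower with scaling to the median (-0.79, adjusted p = 0.0451 in limma). AT2G42650 and AT1G25260 had the largest differences of these loci. AT2G42650, weakly similar to L10a, had 10.17 and 10.20 in the meristem and 8.90 and 8.62 in the leaf, a difference of 1.42. AT1G25260, related to P0, had 13.05 and 13.24 in the meristem and 11.85 and 11.76 in the leaf, a difference of 1.34. Of the 4 loci whose description names a mitochondrial protein, 1 (AT2G07725) was higher, with a difference of 0.94, and its probe lists more than 1 locus. Among all members, 6 had such a probe. With probes that list 1 locus alone, 131 of 237 members (55.3%) were higher and 1 was lower, beside 6248 and 4987 of 23057 loci.

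Other genes of protein synthesis were read as 4 lists. Of 47 loci tested that are described as nucleolar or as ribosome processing proteins, 36 (76.6%, beside 27.1% of all loci) were higher in the meristem and 1 was lower, with a median log2 difference of 0.77. The largest differences were those of AT3G12860, a putative Nop56 (1.72), and *NAP57* (AT3G57150, 1.48), the pseudouridine synthase dyskerin. The lower locus was AT5G46420 (-1.89), described as a RimM family protein of 16S rRNA processing, a kind of rRNA that cytosolic ribosomes lack. AT5G52490, a putative fibrillarin, had a difference of -1.32 with no signal well above background and did not pass the test.

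Translation factors had a smaller median difference. Of 91 tested, 26 (28.6%) were higher, a share near the 27.1% of all loci, and 4 (4.40%, beside 21.6% of all loci) were lower, with a median of 0.31 that came to 0.01 with scaling to the median of the arrays, beside -0.20 for all loci. AT2G44070, described as eIF-2B family, was at least 1.92-fold higher in the meristem, with no leaf array well above background, and AT1G72730, a putative eIF-4A, was 2.63-fold higher. AT4G30690, described as IF-3 family, a type of factor used by bacteria and organelles, was lower (-1.88), and AT4G23330 had a difference of -2.10 with 1 leaf array well above background and did not pass.

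Organellar ribosomal proteins held loci of both directions. Of 38 loci tested that are described as 30S or 50S proteins, 20 (52.6%, beside 21.6% of all loci) were lower in the meristem, 14 of them with a fitted difference of at least 4-fold, and 7 (18.4%, beside 27.1%) were higher. Their median of -0.83 moved with the scaling, to -1.12 with the median of the arrays, -0.41 without scaling and -0.06 with the spike-in spots, and it was -1.34 over loci well above background. *PSRP3/1* (AT1G68590, -2.96) and *RPL12-A* (AT3G27830, -2.73), both of the chloroplast, had the most negative differences. AT5G16200, related to a 50S protein, was higher by 1.26 and *NFD1* (AT4G30930), the mitochondrial L21, by 1.17. The lower signals of chloroplast proteins stood beside those of the mesophyll markers, and its relation to them was not tested.

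Of 12 loci of the TOR pathway, which couples nutrient state to ribosome production, and of regulators linked to it, 4 (33.3%) were higher in the meristem and 1 (8.33%) was lower, beside 27.1% and 21.6% of all loci. *S6K2* (AT3G08720), a kinase of S6, was higher by 1.52 and *NUC-L1* (AT1G48920), a nucleolin needed for rRNA transcription, by 0.86. *NUC-L1* and the nucleolin *NUC-L2* (AT3G18610) are also counted in the list of nucleolar and ribosome processing proteins. The locus lower in the meristem was the *MAF1* homologue AT5G13240 (-0.97), a repressor of RNA polymerase III in yeast and mammals. *LST8-1* (AT3G18140), a partner of TOR, had a difference of -0.24 that did not pass the test.

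The precision of single members was limited by the number of arrays. The SD between the 2 arrays of a tissue, pooled over the members, was 0.17 on the log2 scale, against 0.31 pooled over all loci, and the correlation of the arrays over all loci tested was 0.991 in the meristem and 0.994 in the leaf. For 5 members a second probe was present. It gave a difference of the same sign as the probe used in 3 of them, and a sign opposite to the probe used in AT5G45775 (0.49 with the probe used and -0.42 with the second, which cleared background on no array) and in *RPS26B* (AT2G40590, -0.0033 and 0.21).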

How the data were processed

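Total RNA of the 2 tissues was labelled with Cy3 from an oligo-dT/T7 primer, and a company hybridised it to Agilent 44k arrays. The authors deposited Feature Extraction output for each array with fluorescence intensity per spot, background-subtracted within the array and not scaled between arrays.

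Outlier spots were set missing, log2 of the processed signal was averaged per probe, the arrays were brought to a common 75th percentile, and the brightest probe represented a locus. A locus entered the test with a positive background-subtracted signal on each array of at least 1 tissue (23254 loci, while 14 more lacked a spot). The test was that of limma 3.58.1 (R 4.3.3, with the data.table package, 1.17.8), without a block, and p-values were adjusted after Benjamini-Hochberg across these loci. No pseudocount was added. "At least N-fold" sets the dim tissue to the dimmest signal that was called well above background there. Figures used Python 3.11.15, matplotlib 3.10.9, pandas 2.3.3 and numpy 2.4.6. The fit was checked on simulated data with known differences.

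Alternatives were normexp background correction (offset 50), quantile normalization, scaling to the median, to spike-in spots or not at all, 3 filters, 2 probe rules, an intensity trend, a replicate block, leaving out each array and the methods' t-test. The samples are separate biological replicates per the labels, and their number limits the precision. The members, the gene lists and the rule for named genes were chosen with earlier results of these data known. Named were, among called members that cleared background on each array of the tissue where they were higher, the 10 with the largest and the 10 with the smallest difference, further those with a fitted difference of at least 4-fold, all loci of the 4 families with the widest range, 22 studied loci, members not well above background, and the 2 largest differences in each direction of the related lists. Of the loci this rule names, 2 are not reported here. Promoter motifs were planned and not analysed, since no promoter sequence was used here. Gene symbols came from the array annotation or from RefSeq (TAIR10.1).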

Additional observations from a re-analysis of the deposited data

How the results depend on the processing

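The count of members higher in the meristem (136) stayed within 1.5 times of that value without scaling, with quantile normalization, under the 3 filters and both probe rules, with the intensity trend and with the methods' t-test at an unadjusted p of 0.05 (126). It was 0 with normexp background correction, 47 with scaling to the median, 234 with spike-in scaling and 56 with that t-test once adjusted after Benjamini-Hochberg, and it lay between 31 and 128 when an array was left out. The scalings differ by a constant per array. With normexp background correction the members' median difference was 0.54, close to that reported, and the cause of its lost calls was not tested. Under normexp background correction 547 of all loci were called higher and 1305 lower.

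The count of members lower in the meristem (1) was 0 without scaling, with spike-in scaling and with normexp background correction, 4 with scaling to the median, and 2 with quantile normalization, with loci well above background in at least 1 tissue or on all 4 arrays, with the intensity trend and with the unadjusted t-test. It lay between 1 and 2 when an array was left out. The count with a fitted difference of at least 4-fold was 2, of which AT5G63070 has only a bound of at least 3.80-fold. It was 0 with quantile normalization, scaling to the median and normexp background correction. With loci well above background on all 4 arrays and with the adjusted t-test it was 1. Without scaling it was 3, and with spike-in scaling it was 5. The members' median over that of all loci (0.456) was 0.712 with quantile normalization, 0.376 to 0.557 when an array was left out, and moved by less than the replicate SD otherwise.

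With the replicate block, 133 members were higher and 1 was lower, and 121 of the 133 were among the 136. Of all loci, 6060 were higher and 4850 lower with the block. Replicate numbers are shared by the tissues in the labels, but the labels do not say what a number stands for. With only 2 pairs they were not taken as pairs, and the correlation of same-numbered deviations was 0.0899 over all loci and 0.312 over the members. Of the 55 named members tested, 8 lost a call with the block (*PGY1*, *PGY2*, *RPS25B*, *RPS11A*, *RPS27aC*, *RPL7B*, *RPL10aA* and *RPL34B*), and *RPL23aB* gained one. No named member called in the report changed sign under any alternative.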
